A study of Mus musculus with 18 samples.

Results

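AP-1 is a dimeric transcription factor built from proteins of the Jun, Fos and ATF families. Several of its subunits are encoded by immediate early genes, which cells transcribe within minutes of a stimulus from factors that are already present. IL-1β, a cytokine that sets off the acute-phase response of the liver, signals through MAP kinases and NF-κB, which act on these genes. Their transcripts are short-lived, and several of them fall back soon after the first burst.

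The data described here are the counts of 10 AP-1 or immediate early genes, chosen by symbol from the 21018 genes listed in at least 1 of the 3 count tables of the study. All 10 were listed in each table. They are Jun, Junb, Jund, Fos, Fosl2, Atf3, Egr1, Ier2, Ier3 and Myc. The samples were livers of 12-week-old male C57/B6J mice taken 4 h after an intraperitoneal injection of 20 µg/kg IL-1β (3 mice, I9579, I9582 and I9583) or of saline (3 mice, U9574, U9575 and U9576). From each of the 6 mice, RNA was made into a library with 3 kits, which gave 18 libraries. The study prepared and sequenced Pico libraries a second time, and the labels do not say which preparation the Pico counts come from. Pico keeps the strand and starts from total RNA with enzymatic removal of ribosomal cDNA, V4 is a poly(A) kit without strand information, while TruSeq selects poly(A) RNA, keeps the strand and was used with far more RNA. The question of the study was how the low-input kits compare with TruSeq, and for these genes it becomes which responses to IL-1β were seen with each kit. Between TruSeq and the other kits, kit cannot be told apart from RNA input, read length, sequencer and time of sequencing. Pico and V4 shared read length and sequencer model, but kit cannot be told apart there from RNA input or time of sequencing. IL-1β was therefore compared with saline within each kit.

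The gene counts of a library summed to 12348864 to 12858237 in TruSeq, 12013453 to 12352473 in V4, and 4024632 to 4134070 in Pico. Hepatocyte markers, led by Alb (albumin), were present in every library. Their summed level was 57710 to 70170 CPM (counts per 1 000 000) in the saline libraries of Pico and 47930 to 53110 CPM in its IL-1β libraries, and it was also lower after IL-1β in V4 and TruSeq. Not all of these markers fell. Tat was called higher in all kits (log2 fold change 1.14, 0.98 and 1.28 in Pico, V4 and TruSeq), and Hnf4a, named after its values were seen, in Pico (0.65) and TruSeq (0.91). Summed neutrophil markers were at 51.2 to 96.6 CPM after IL-1β and at 4.45 to 7.35 CPM after saline in TruSeq, where Mpo was at 0 in all libraries. In Pico they were at 52.9 to 63.4 CPM with IL-1β and 0.971 to 6.61 with saline (Ly6g, Mpo and Elane at 0), and in V4 at 44.3 to 81.0 with IL-1β and 2.15 to 5.49 with saline (Ly6g and Mpo at 0). Of the 10 neutrophil markers, 6 were called higher in V4 and 7 in each of the other kits. Summed Kupffer cell markers were lower after IL-1β in each kit, at 52.6 to 78.3 CPM against 108 to 180 CPM in TruSeq, 35.9 to 66.0 against 81.0 to 170 in V4, and 77.9 to 112 against 142 to 183 in Pico. Marco, also named after its values were seen, went the other way and was called higher in TruSeq (1.30 ± 0.29, adjusted p = 0.0073). Summed endothelial markers were at 79.9 to 101 CPM after IL-1β against 150 to 172 in TruSeq, 44.2 to 62.4 against 77.3 to 113 in V4, and 237 to 279 against 323 to 355 in Pico. Stellate cell markers were at 48.5 to 75.4 against 101 to 134 CPM in TruSeq and 130 to 186 against 202 to 287 in Pico, and overlapped in V4. Kdr and Clec4g (endothelial) and Lrat (stellate) were called lower in all kits. The endothelial markers Lyve1 and Cdh5, named after their values were seen, went the other way. Lyve1 was called higher in Pico (log2 fold change 1.65) and TruSeq (0.94), and Cdh5 in Pico (0.72). Lymphocyte markers summed to at most 6.64 CPM in any library, with Nkg7 at 0 in Pico. The sum of the cholangiocyte markers overlapped between treatments in V4, TruSeq and Pico, but its genes went both ways. Sox9 and Epcam, named after their values were seen, were called higher in TruSeq (log2 fold change 1.18 and 1.22). Epcam was called higher in Pico too (3.43), and Spp1 was called lower in TruSeq (-0.44). In TruSeq, the markers with the most counts were S100a9 (neutrophil), Clec4f (Kupffer), Stab2 (endothelial), Reln (stellate), Cd4 (lymphocyte) and Spp1 (cholangiocyte). The part of these changes in the results below was not tested. In bulk liver, fewer cells of a type and less RNA per cell cannot be told apart.

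The promoters of the 3 Jun genes, which rose in all kits, and of Ier3, which did not overlap between treatments in any kit, are shown here. The sequences are the bases before the start of each gene (the earlier of the RefSeq and GENCODE starts), 5′ to 3′ on the gene's strand, from the RefSeq promoter table (GRCm38.p6), and each matched the mm9 genome exactly once. They lie at chr4:94718914-94719163 (minus strand, Jun), chr8:87502648-87502897 (minus, Junb), chr8:73221388-73221637 (plus, Jund) and chr17:35958408-35958628 (plus, Ier3) of mm9. Capitals mark TGACATCA, a variant of the AP-1 and CRE site, in Jun and a match to the κB consensus in Ier3.
Jun: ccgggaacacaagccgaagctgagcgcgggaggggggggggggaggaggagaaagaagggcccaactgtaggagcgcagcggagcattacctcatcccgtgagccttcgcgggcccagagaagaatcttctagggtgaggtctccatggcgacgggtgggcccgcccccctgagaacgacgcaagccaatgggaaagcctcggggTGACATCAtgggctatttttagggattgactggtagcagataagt
Junb: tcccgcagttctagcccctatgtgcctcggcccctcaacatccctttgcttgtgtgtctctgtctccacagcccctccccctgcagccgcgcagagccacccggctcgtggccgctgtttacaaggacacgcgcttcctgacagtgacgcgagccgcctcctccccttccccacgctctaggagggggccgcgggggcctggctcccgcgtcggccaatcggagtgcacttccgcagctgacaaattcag
Jund: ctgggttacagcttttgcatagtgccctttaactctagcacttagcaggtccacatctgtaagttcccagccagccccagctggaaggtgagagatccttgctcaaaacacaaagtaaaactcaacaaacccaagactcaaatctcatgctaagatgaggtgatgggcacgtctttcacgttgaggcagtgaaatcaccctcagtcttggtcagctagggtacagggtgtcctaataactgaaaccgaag
Ier3: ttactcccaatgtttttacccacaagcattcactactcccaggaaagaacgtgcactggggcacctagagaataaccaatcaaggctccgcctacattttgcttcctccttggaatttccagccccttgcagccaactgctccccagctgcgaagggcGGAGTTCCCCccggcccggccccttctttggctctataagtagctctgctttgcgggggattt

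The motifs searched on both strands were TGAGTCA (the AP-1 site), TGACGTCA (the CRE), TGACATCA, CACGTG (the E-box of Myc), the CArG box and the κB consensus, and they were picked after the sequences had been seen. Of the 10 genes, 7 had an entry in the table. Egr1, Ier2 and Myc had none. In Jun, TGACATCA stood 45 to 38 bases before the start, and 2.93% of 32851 promoters held it. The κB consensus, held by 7.25% of promoters, was matched in Ier3 63 to 54 bases before the start, and also in Fos and Fosl2. The windows held the 250 bases before the start, cut to 243 in Atf3 and 221 in Ier3. The other motifs were in none of the 7 windows, and 4.46% of all promoters held TGAGTCA, 1.55% TGACGTCA, 6.02% CACGTG and 1.47% the CArG box. Sites farther upstream, or with letters other than these motifs, were not searched for. A match describes letters and not a bound site.

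At 4 h after IL-1β, the 3 Jun genes were higher in all 3 kits, by a factor of 2.38 to 4.20. Jun, Junb and Ier3 did not overlap between treatments in any kit. Fos, Egr1 and Myc were called in no kit. A gene was called when its Benjamini-Hochberg adjusted p from limma-voom, over all genes of the kit, was at most 0.05. Of the 10 genes, 3 were called higher and 1 lower in Pico, where 6.78% of all genes were called higher and 10.8% lower. In V4, 3 were called higher and 0 lower (DESeq2 and edgeR also 0, while 5 of the 10 had an unadjusted p under 0.05 in either direction), against 3.6% and 7.41% of all genes. In TruSeq, 6 were called higher and 0 lower (edgeR and DESeq2 also 0, and the 7 with an unadjusted p under 0.05 were all higher), against 12.3% and 21.8%. Of the 16184 genes listed in all tables, 3.05% were called higher in all 3 kits, as 3 of the 10 were, and 5.35% lower, as 0 of the 10 were. The median log2 fold change of the 10 genes was 1.23 in TruSeq, 1.27 in V4, and 1.25 in Pico. That of all genes was -0.17, -0.22 and -0.12 in the same order. With TMM scaling factors in place of library totals, the median of all genes moved up by 0.158, 0.168 and 0.131. Higher genes then made up 52.9% in place of 38.6% of all calls in Pico, 49.7% in place of 32.7% in V4, and 50.9% in place of 36.0% in TruSeq.

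**Figure D1:**
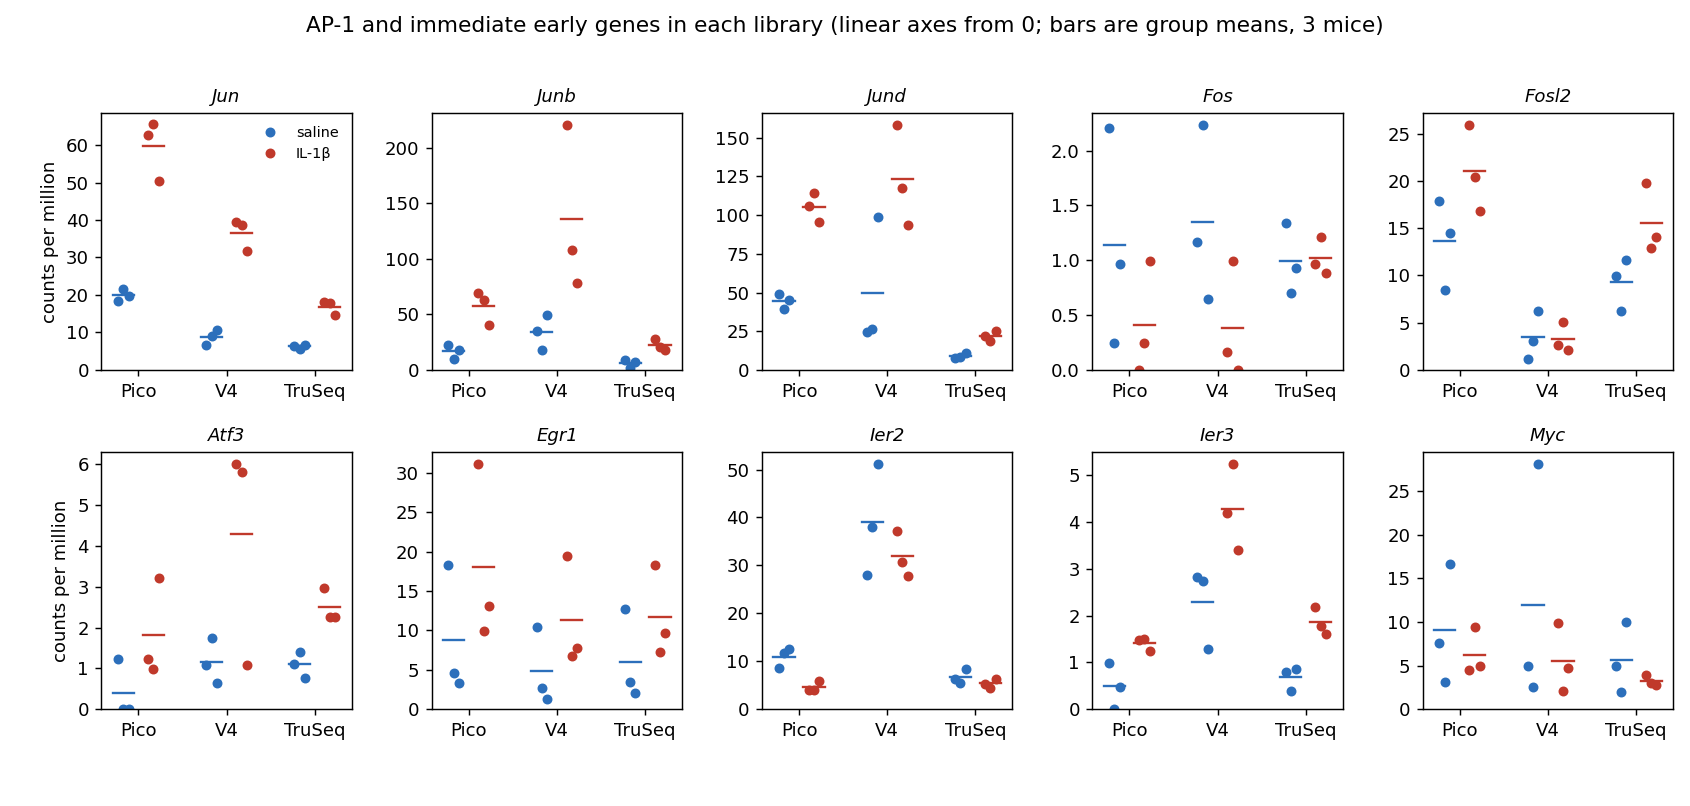
Level in CPM of the 10 genes in each of the 18 libraries, on linear axes from 0, with 1 point per mouse and bars for the mean of 3 mice, in blue for saline and red for IL-1β. Jun, Junb and Ier3 separate the treatments in all 3 kits, while in V4 a saline mouse (U9576) at 98.8 CPM of Jund lies among the IL-1β mice.

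Jun encodes c-Jun, the classical partner of Fos proteins in AP-1. Its gene is a single exon on the minus strand of chromosome 4 (ENSMUSG00000052684, mm9, 94715725 to 94718913). In Pico, Jun had 254, 264 and 204 counts in IL-1β mice I9579, I9582 and I9583, and 75, 89 and 82 counts in saline mice U9574, U9575 and U9576, the order used for all values below. In V4 it had 479, 466 and 383 counts after IL-1β and 80, 110 and 131 after saline. In TruSeq it had 225, 221 and 183 counts after IL-1β and 80, 73 and 87 after saline. The groups did not overlap in any kit, and I9583 was the lowest IL-1β mouse in all of them. The log2 fold change was 1.57 ± 0.20 (SE, adjusted p = 4.1e-05) in Pico, 2.07 ± 0.27 (adjusted p = 0.00103) in V4 and 1.43 ± 0.15 (adjusted p = 0.000115) in TruSeq. Jun was called in each kit under every alternative tried. BC042782, on the opposite strand, shares 232 exon bases with Jun, and it had 0 to 4 counts in any library.

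Junb encodes JunB, an AP-1 subunit of the acute inflammatory response, from a single exon on the minus strand of chromosome 8 (ENSMUSG00000052837, 87500811 to 87502617). In Pico it had 281, 255 and 164 counts after IL-1β and 91, 42 and 75 after saline. In V4 it had 2685, 1302 and 943 counts after IL-1β and 419, 213 and 616 after saline. In TruSeq it had 343, 259 and 218 counts after IL-1β and 117, 26 and 95 after saline. The groups did not overlap in any kit. I9579 was the highest mouse and U9575 the lowest in each kit. On the log2 scale the change was 1.81 ± 0.29 (adjusted p = 0.000325) in Pico, 1.97 ± 0.43 (adjusted p = 0.0142) in V4 and 2.06 ± 0.42 (adjusted p = 0.00449) in TruSeq. The call in V4 was lost without U9574 (adjusted p = 0.0588), U9575 (0.0836) or I9582 (0.0517). The call in Pico was lost in 1 fit of all 18 libraries (0.0644).

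Jund encodes JunD, the Jun protein that many resting cells hold, from a single exon on the plus strand of chromosome 8 (ENSMUSG00000071076, 73221638 to 73224515). In Pico it had 429, 460 and 387 counts after IL-1β and 199, 162 and 186 after saline. In TruSeq it had 270, 229 and 315 counts after IL-1β and 96, 105 and 138 after saline. In V4 it had 1930, 1419 and 1128 counts after IL-1β and 296, 319 and 1221 after saline. The groups were apart in Pico and TruSeq, and overlapped in V4, where U9576 was above I9583. IL-1β over saline gave a log2 fold change of 1.25 ± 0.16 (adjusted p = 2.9e-05) in Pico, 1.58 ± 0.42 (adjusted p = 0.0347) in V4 and 1.31 ± 0.17 (adjusted p = 0.000413) in TruSeq. The V4 call was lost with DESeq2 (adjusted p = 0.113) and without any 1 of the mice but U9576 (0.0761 to 0.183), and the TruSeq call in 1 fit of all 18 libraries (0.0510). Gm11175, on the opposite strand, shares 543 exon bases with Jund and had 0 to 3 counts in Pico and 0 to 2 in TruSeq. V4 counts do not separate the strands, and Gm11175 was not listed there.

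**Figure D2:**
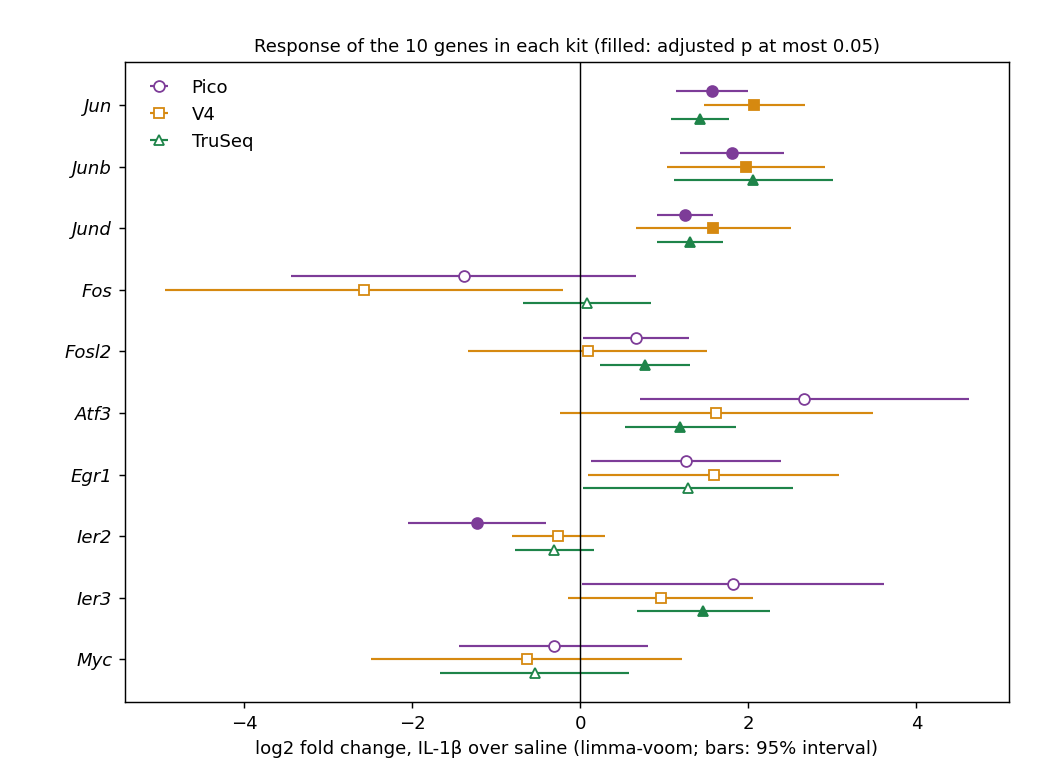
Log2 fold change of each gene, IL-1β over saline, in the 3 kits, with 95% intervals from limma-voom. Filled symbols mark an adjusted p of at most 0.05, which Jun, Junb and Jund have in all kits, and 3 further genes only in TruSeq and Ier2 only in Pico.

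Fos encodes c-Fos, the Fos protein of the first burst after a stimulus. It was the gene with the fewest reads of the 10 after IL-1β in every kit. Pico had 0, 1 and 4 counts in the IL-1β mice and 9, 1 and 4 in the saline mice, and V4 had 2, 12 and 0 against 14, 27 and 8. TruSeq had 12, 15 and 11 counts after IL-1β and 17, 9 and 12 after saline. The groups overlapped in all kits. The response on the log2 scale was -1.39 ± 0.97 (adjusted p = 0.390) in Pico, -2.58 ± 1.08 (0.162) in V4 and 0.08 ± 0.34 (0.885) in TruSeq, where its 95% interval was -0.69 to 0.84. A count of 0 allows up to 3 counts, so the level of Fos in Pico was close to the limit of the depth. In 1 fit of all 18 libraries, which had no term for the mouse, Fos was called lower in V4 (adjusted p = 0.0355).

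Fosl2 encodes Fra-2, a Fos protein that appears later than c-Fos. In TruSeq it had 245, 159 and 174 counts after IL-1β and 126, 80 and 149 after saline, and the groups did not overlap. In Pico it had 105, 82 and 68 against 73, 35 and 60 counts, and in V4 32, 61 and 25 against 14, 37 and 77, both with overlap. The log2 fold change was 0.77 ± 0.24 (adjusted p = 0.0328) in TruSeq, 0.67 ± 0.30 (0.148) in Pico and 0.09 ± 0.65 (0.950) in V4. The TruSeq call was lost without any 1 of the mice but U9576 (adjusted p = 0.0554 to 0.133) and in 1 fit of all 18 libraries (0.0748), and edgeR called Fosl2 in Pico (0.0280).

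Atf3 encodes a stress-induced ATF protein that pairs with Jun proteins. In TruSeq it had 37, 28 and 28 counts after IL-1β and 14, 18 and 10 after saline, without overlap. In V4 it had 73, 70 and 13 against 13, 21 and 8 counts, and in Pico 5, 4 and 13 against 5, 0 and 0. I9583 was thus at the saline level in V4 and the highest mouse in Pico. On the log2 scale the change was 1.19 ± 0.30 (adjusted p = 0.0119) in TruSeq, 1.62 ± 0.85 (0.272) in V4 and 2.67 ± 0.92 (0.0570) in Pico. Atf3 was called in V4 with DESeq2 (adjusted p = 0.0368) or without I9583 (0.0450), and in Pico with TMM factors (0.0423) or without U9574 (0.0196). It was not called in TruSeq in 1 fit of all 18 libraries (0.255).

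Egr1 encodes a zinc finger transcription factor and is a standard immediate early gene that does not belong to AP-1. In Pico it had 126, 40 and 53 counts after IL-1β and 75, 19 and 14 after saline. In V4 it had 237, 81 and 94 against 126, 33 and 16 counts, and in TruSeq 228, 89 and 120 against 161, 44 and 26. The groups overlapped in each kit, since the saline mouse U9574 was above the IL-1β mice I9582 and I9583. IL-1β over saline gave a log2 fold change of 1.26 ± 0.53 (adjusted p = 0.124) in Pico, 1.59 ± 0.68 (0.172) in V4 and 1.28 ± 0.56 (0.110) in TruSeq. Egr1 was called in TruSeq without U9574 (2.03, adjusted p = 0.0418) and in Pico with edgeR (0.00106). Leaving out 1 mouse moved the log2 fold change between 0.78 (without I9579) and 1.98 (without U9574) in Pico, 0.91 (without U9576) and 2.40 (without U9574) in V4, and 0.71 (without U9576) and 2.03 (without U9574) in TruSeq.

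Ier2 and Ier3 are small immediate early genes, and Ier3 encodes a protein that modulates cell survival. In Pico, Ier2 had 16, 16 and 24 counts in the IL-1β mice and 35, 48 and 52 in the saline mice. It had 453, 370 and 335 against 337, 459 and 633 in V4, and 66, 56 and 78 against 79, 70 and 109 in TruSeq. The groups were apart in Pico and overlapped in the other kits. The response on the log2 scale was -1.23 ± 0.39 (adjusted p = 0.0366) in Pico, -0.26 ± 0.25 (0.583) in V4 and -0.31 ± 0.21 (0.308) in TruSeq. Its call in Pico was lost with DESeq2 (adjusted p = 0.0555), with TMM factors (0.0643), in 1 fit of all 18 libraries (0.127) and without any 1 of the mice but U9574 (0.0689 to 0.132).

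In TruSeq, Ier3 had 27, 22 and 20 counts in the IL-1β mice and 10, 5 and 11 in the saline mice. It had 51, 63 and 41 against 34, 33 and 16 counts in V4, and 6, 6 and 5 against 4, 0 and 2 in Pico. The groups did not overlap in any kit. The log2 fold change was 1.46 ± 0.35 (adjusted p = 0.0104) in TruSeq, 0.96 ± 0.50 (0.273) in V4 and 1.82 ± 0.85 (0.168) in Pico. The TruSeq call was lost in 1 fit of all 18 libraries (0.0703). The IL-1β mice were all above the saline mice for 6 of the 10 genes in TruSeq (14.5% of all genes), 3 in V4 (8.71%), and 4 in Pico (11.0%). They were so in all 3 kits for 3 of the 10 genes and 5.57% of all genes. They were all below for 1 of the 10 genes in Pico (19.2% of all genes) and for 0 in V4 (18.2%) and TruSeq (29.3%), and 11.5% of all genes were below in all 3 kits.

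Myc encodes c-Myc, a driver of growth and ribosome production. In TruSeq it had 49, 37 and 34 counts after IL-1β and 63, 26 and 128 after saline. In V4 it had 120, 25 and 57 against 60, 31 and 348 counts, and in Pico 18, 38 and 20 against 31, 13 and 69. U9576 was the highest mouse in each kit, and the groups overlapped in each. On the log2 scale the change was -0.31 ± 0.53 (adjusted p = 0.716) in Pico, -0.64 ± 0.84 (0.691) in V4 and -0.54 ± 0.50 (0.469) in TruSeq. Without U9576 it was 0.27, 0.36 and 0.0052, so the sign rested on that mouse.

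Levels of different genes were compared per length, as CPM per kb of exon. After saline in TruSeq, Ier2 was highest, at 4.42 ± 1.03 CPM per kb (SD, n = 3), before Junb at 3.44 ± 2.07 and Jund at 3.07 ± 0.58, and these neighbours differed by less than their spread. Fos was lowest, at 0.42 ± 0.14. After IL-1β in TruSeq, Junb led at 12.2 ± 2.83 CPM per kb, followed by Jund at 7.61 ± 1.19 and Jun at 5.31 ± 0.59, and the libraries of these neighbours did not overlap. Among all genes above 0, Junb then stood at the 82.8th percentile and Fos at the 34.9th. In Pico after IL-1β, Jund (36.6 ± 3.22) and Junb (31.99 ± 8.41) were at the top, and in V4 Junb (75.0 ± 41.6) and Jund (42.8 ± 11.4), and in both kits the libraries of the pair overlapped. Ier2 was first after saline also in V4, at 25.7 ± 7.65, while Jund and Junb were above it in Pico, where it was at 7.18 ± 1.38. The tables were normalized separately, so only the order within a kit is compared.

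The difference in response between kits was tested as the interaction of kit and treatment. The main fit had no term for the mouse and treated the libraries of a mouse as independent. The intervals given here come from that fit and so include the spread between mice. None of the 10 genes was called in any of the 3 pairs of kits, where 0.0% of all genes were called by limma-voom and 0 also by edgeR. At an unadjusted p under 0.05, 1 of the 10 genes differed for Pico and TruSeq (5.49% of all genes), 1 for V4 against TruSeq (6.36%), and 0 for the pair of Pico and V4 (5.49%). These were Ier2, whose response was lower in Pico than in TruSeq by a log2 difference of -0.92 (95% interval -1.81 to -0.03, adjusted p = 0.900), and Fos, lower in V4 than in TruSeq by -2.65 (-5.14 to -0.17, adjusted p = 0.736). For Jun, the response in V4 minus that in TruSeq was 0.64 (-0.03 to 1.32, adjusted p = 0.812). The differences for Junb were between -0.25 and -0.08, and the widest interval, that of V4 minus TruSeq, reached from -1.81 to 1.64. With the mouse as a replicate block, 1 gene outside the 10 was called between Pico and TruSeq. Calls made in TruSeq alone (Fosl2, Atf3 and Ier3) and in Pico alone (Ier2) are therefore not shown to differ between the kits.

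Since RNA of each mouse was measured 3 times, the deviation of a mouse from the mean of its kit and treatment could be followed over the kits. The paper states that extracted samples were aliquoted for the runs. Here and below, a difference between mice therefore cannot be told apart from one of harvest or RNA extraction. Deviations were taken in log2(CPM + 1) over the 8960 genes whose mean count was 20 or more in each kit. By level in CPM, Egr1 had the same order of all 6 mice in the 3 kits, which 0.603% of these genes had. This order of levels from high to low was I9579, U9574, I9583, I9582, U9575 and U9576. Its deviation was 1.31, 1.32 and 1.27 in U9574 and -0.83, -1.01 and -0.91 in U9576, in Pico, V4 and TruSeq. The mouse means of Egr1 had an SD of 0.969, against 0.102 between kits within a mouse, while the medians over all these genes were 0.169 and 0.230. The RNA samples of the mice thus differed in Egr1 by far more than the kits did within a mouse.

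Junb and Myc also differed between the RNA samples of the mice. The SD of mouse means was 0.610 for Junb, with 0.292 between kits, and 0.844 for Myc, with 0.572 between kits. By level, the 3 IL-1β mice had the same order of Junb in all kits, as in 9.15% of genes, and the 3 saline mice the same order of Myc, as in 8.91%. Jun, in contrast, had an SD of mouse means of 0.154, at the 43.0th percentile, against the 99.8th for Egr1, the 99.2nd for Junb and the 99.8th for Myc. Of the 10 genes, 7 had enough counts, and 5 of them (Egr1, Myc, Junb, Jund and Fosl2) were at or above the 90th percentile. For Jund and Fosl2 the SD between kits within a mouse was larger than that of mouse means (0.461 against 0.331 and 0.496 against 0.329), and the kits did not share an order of the mice. In the list of other immediate early genes, 4 of 14 were at or above the 90th percentile, and 2 of 13 other AP-1 and ATF genes. So were 4 of 5 Kupffer cell markers and 3 of 5 stellate cell markers, but 0 of 19 MAP kinase and ternary complex genes. A large spread between mice was thus not particular to the 10 genes.

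**Figure D3:**
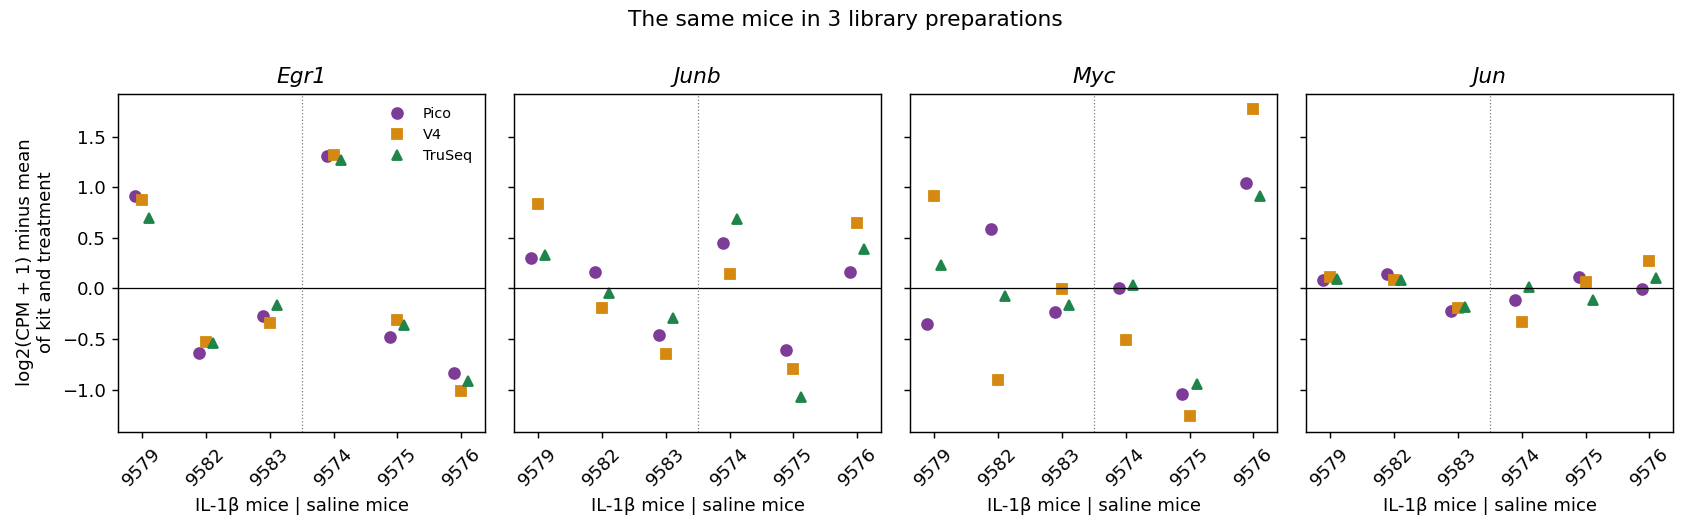
Deviation of each mouse from the mean of its kit and treatment, in log2(CPM + 1), for Egr1, Junb, Myc and Jun, with a symbol per kit and the IL-1β mice left of the dotted line. The 3 symbols of a mouse nearly coincide for Egr1, with U9574 at 1.27 to 1.32, and all mice lie close to 0 for Jun.

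The genes around these 10 were read from the same fits. Of all genes, TruSeq called 12.3% higher and 21.8% lower, V4 3.6% and 7.41%, and Pico 6.78% and 10.8%. Of 19 other AP-1 and ATF genes, TruSeq called 8 higher and 3 lower, V4 3 higher and 1 lower, and Pico 4 higher and 1 lower. Crem, a cAMP-responsive regulator, rose in all kits (log2 fold change 1.49 ± 0.28, 1.29 ± 0.19 and 1.45 ± 0.17 in Pico, V4 and TruSeq), as did Atf4, the transcription factor of the integrated stress response (0.86, 0.84 and 1.08). Mafg, a small Maf protein, fell in all kits (-0.67, -0.90 and -0.69). Of the other immediate early genes, TruSeq called 12 of 23 higher and 1 lower, V4 4 of 21 higher, and Pico 8 of 23 higher. Btg2, an antiproliferative gene, rose most of those called in all kits (2.99 ± 0.28, 2.58 ± 0.24 and 3.01 ± 0.15). Dusp1, a phosphatase that switches off MAP kinases, rose by 1.62 in V4 and 1.42 in TruSeq and was called in Pico too (adjusted p = 0.00975), and Zfp36, which destabilises cytokine mRNAs, rose by 0.77, 1.07 and 1.14 in Pico, V4 and TruSeq.

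Upstream of AP-1, TruSeq called 5 of 20 MAP kinase and ternary complex genes higher and 4 lower, V4 3 higher and 1 lower, and Pico 3 higher and 3 lower. The lower calls in TruSeq and V4 were near the shares of all genes called lower, 21.8% and 7.41%. Elk1, a ternary complex factor that acts on Fos and Egr1, rose by 1.40 in Pico and 1.74 in TruSeq and was called in V4 too (adjusted p = 0.0145), and Mkl1, a coactivator of SRF, rose by 1.35, 2.46 and 1.27 in Pico, V4 and TruSeq. Mapkapk2, the kinase downstream of p38, rose by 0.85 in V4 and 1.19 in TruSeq and was called in Pico too (adjusted p = 0.00119). Map2k6, a kinase that activates p38, fell in all kits (-3.89 ± 0.65, -2.52 ± 0.47 and -4.12 ± 0.31), from a mean of 127 counts after saline to 7.0 after IL-1β in TruSeq.

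Downstream, TruSeq called 6 of 14 textbook AP-1 targets higher and 1 lower, V4 4 of 12 higher, and Pico 6 of 14 higher. Timp1, an inhibitor of matrix proteases, was at 0 in the saline libraries of Pico, against a mean of 16.0 counts with IL-1β, and at 1.33 against 97.7 counts in TruSeq. Plaur, the urokinase receptor, and Hmox1, heme oxygenase, rose by 1.83 and 1.33 in TruSeq and were also called in the other kits. Of 16 textbook Myc targets, TruSeq called 11 higher, V4 5 and Pico 7, and 0 were called lower in each kit, while Myc itself was not called. Nop58, a nucleolar protein of ribosome production, rose by 2.37, 2.28 and 2.34. Ppan (1.24, 1.30 and 1.37) and Rrp9 (1.40, 1.23 and 1.19), both of ribosome production, and Ldha, lactate dehydrogenase (1.10, 0.88 and 1.19), rose as well.

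Among the partners and antagonists of Myc, TruSeq called 5 of 13 higher and 4 lower, V4 1 higher and 3 lower, and Pico 4 of 12 higher and 4 lower. Max, the obligate partner of Myc, rose by 0.96, 1.56 and 1.05. Mycl1, the L-Myc gene, fell in all kits, from a mean of 98.7 to 7.33 counts in TruSeq (-3.76 ± 0.43). Mxi1, which competes for Max, and Mlxipl, the carbohydrate-response factor ChREBP, also fell (-0.96 and -0.95 in TruSeq). The lists share the mice of the 10 genes, and their counts are given as descriptions.

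**Figure D4:**
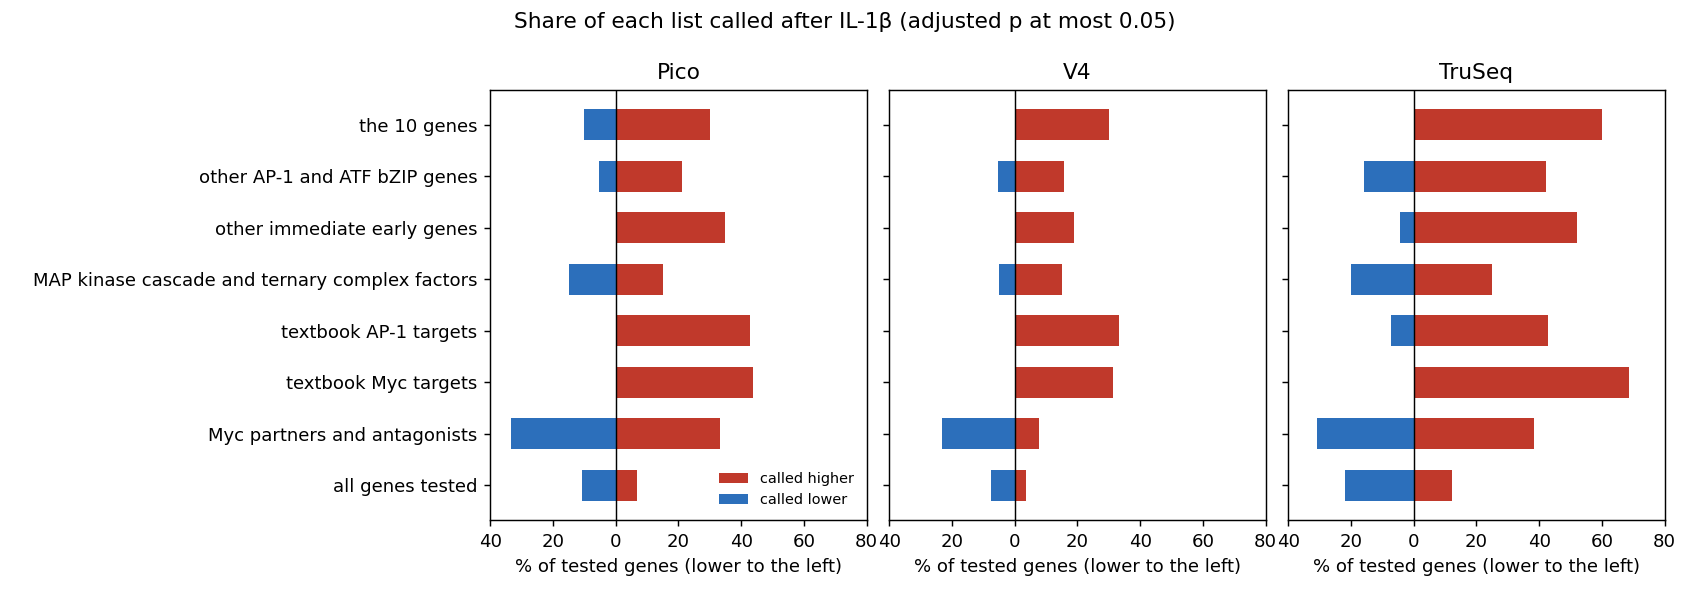
Share of the tested genes of each list that was called higher (red, to the right) or lower (blue, to the left) after IL-1β in each kit, in percent, with all tested genes in the last row. The Myc targets reach 11 of 16 genes higher in TruSeq with 0 lower, and the partners and antagonists of Myc are called in both directions in each kit.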

How the data were processed

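The deposited values are whole read counts per gene, which the authors made by aligning to mm9 with GSNAP and normalizing by resampling of reads with PORT, counting sense reads for Pico and TruSeq and both strands for V4. The 3 tables were normalized separately. Each kit was fitted with limma-voom (limma 3.58.1, R 4.3.3) with library totals, over genes above 0 in any library, with Benjamini-Hochberg adjustment over all of them. Interactions used the 12 libraries of 2 kits, without a term for the mouse in the main fit. Alternatives were edgeR 4.0.16, DESeq2 1.42.0, TMM factors, a filter of 10 counts in 3 libraries, no filter, leaving out each mouse, 1 fit of all 18 libraries, and the mouse as a block. The fits were tested on simulated data. Positions and exon lengths are from the GENCODE annotation of mm9. Summaries used Python 3.11.15.

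The mouse number pairs the libraries, since RNA of the same animal entered each kit. Deviations of the same mouse correlated at 0.0796 to 0.458 over genes, and those of different mice at -0.36 to -0.0327. The deviations of the 3 mice of a kit and treatment sum to 0. The negative values of different mice therefore follow from the positive ones of the same mouse and are no separate evidence. The 10 genes and the lists were chosen with earlier results of these data known. All 10 genes are named. From each other list, at most 4 genes called in all 3 kits in 1 direction are named, in the order of the TruSeq fold change, and 2 genes within this rule are not reported here. From the marker lists, those at 0 in a kit and the one with the most counts in TruSeq are named.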

Additional observations from a re-analysis of the deposited data

How the results depend on the processing

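For the 10 genes within a kit, 163 of 177 values under another test, scaling, filter or fit kept their direction and their side of the threshold, and 152 of 180 did when a mouse was left out. The main fit already tested all 18108 genes listed for Pico, all 18051 for V4 and all 19424 for TruSeq. Fitting with no filter therefore repeated the main fit. Its values among the 177 could not differ and are no separate check. Called higher in Pico were 5 with edgeR, and called lower 0 with DESeq2, with TMM factors and in 1 fit of all 18 libraries. That fit called 2 higher in TruSeq, 1 lower in V4, and 4698 genes in V4 and 4239 in TruSeq in place of 1986 and 6614. It covered only the 16184 genes listed in all 3 tables and treated the libraries of a mouse as independent. Leaving out a mouse gave 1 to 3 called higher in V4, 0 to 1 called lower in Pico, 1765 to 2603 of all genes in Pico (3179 with all mice) and 908 to 2093 in V4. The cause was not tested.

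Signs within a kit turned when a mouse was left out for Myc (-0.92 to 0.27 in Pico, -1.37 to 0.36 in V4, -1.14 to 0.0052 in TruSeq), Fosl2 in V4 (-0.53 to 0.66) and Fos in TruSeq (-0.14 to 0.31).

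No difference in response between kits was called for the 10 genes under any alternative. Not all of these differences were small, and their intervals were wide. In the main fit, Pico minus V4 was 1.19 for Fos (interval -2.07 to 4.44) and 1.05 for Atf3 (-2.00 to 4.10). The absence of calls therefore does not show equal responses. Many of the differences changed sign. With edgeR, Egr1 was at 0.036 (Pico minus TruSeq), Junb at 0.14 and Jund at -0.018 (both V4 minus TruSeq). With the mouse as a replicate block, Egr1 was at 0.071 and Junb at 0.12, and 1 gene of all was called between Pico and TruSeq. The block changed no other call. Leaving out a mouse gave the following ranges. Pico minus TruSeq was -0.12 to 0.072 for Egr1, -0.21 to 0.052 for Fosl2, -0.23 to 0.89 for Ier3, -0.43 to 0.093 for Junb, -0.23 to 0.12 for Jund and -0.14 to 0.58 for Myc. V4 minus TruSeq was -0.019 to 1.16 for Atf3, -0.13 to 0.26 for Ier2, -0.42 to 0.17 for Junb and -0.49 to 0.43 for Myc. Pico minus V4 was -0.23 to 2.20 for Atf3, -0.76 to 2.35 for Fos, -0.22 to 1.47 for Ier3, -0.42 to 0.10 for Junb, -0.98 to 0.086 for Jund and -0.57 to 1.08 for Myc. Of all genes, 0 to 57 were called for V4 minus TruSeq, and 0 to 39 for Pico minus V4, in both above 0 only without U9576.

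Depth limits Fos, Atf3 and Ier3 in Pico, with at most 13 counts in a library. Counts without molecular identifiers are not independent molecules.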
